A study of Chlamydomonas reinhardtii with 2 samples.

Results

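The long introns of the green alga Chlamydomonas reinhardtii were taken from cDNA reads as genome gaps of at least 400 bases that carried GT-AG borders and were seen in at least 2 reads. This rule gave 585 introns, 12.9% (interval 11.96 to 13.9) of the 4526 GT-AG introns seen in at least 2 reads, and each of the 585 is counted below. They were chosen by the measured intron length and the number of spliced reads, so these 2 measures are described without a test. The remaining 3941 introns, all under 400 bases, served for comparison. All intervals of shares are exact Clopper-Pearson 95% intervals, which cover counting error only, because PCR copies are not independent molecules and introns of 1 transcript share their reads.

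The reads came from cells of strain dw15.1, which carries cw15, a mutation of the cell wall, nit2, a mutation in the regulator of nitrate assimilation, and the mating type mt+. They had been kept for 48 hours in 50 mL of TAP medium, which contains acetate, with 10 mM ammonium (N-replete) under continuous light. The second group, cells of the same strain kept equally long in medium without nitrogen (N-deprived), was not analysed here, so nitrogen supply was not compared. Each condition had 1 biological replicate, and the values below have no replicate error. First strands were started from the tail of adenines with an oligo-dT primer, copied by the SMART method for full-length cDNA, amplified by PCR and size-selected. Pyrosequencing on a GSFLX Titanium instrument gave 239585 aligned reads with a median length of 232 bases, of which 223395 had a best place without a tie.

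Introns are removed from the primary transcript by the spliceosome, which recognises the donor site at the 5' border, usually beginning with GT, a branch point, and the acceptor site at the 3' border, usually ending with AG. Nuclear genes of Chlamydomonas are rich in introns. In many animals and plants the first intron of a gene, which may hold regulatory sequence, tends to be longer than the later ones. Positions below are in the genome build of the deposited alignments, which the sources used here do not give. Its sequences are numbered 1 to 17, with a further one called NA. No annotation or genome sequence of that build was used here, so genes, coding parts and untranslated parts were not assigned, and the bases of the introns are not shown.

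Most long introns were close to the lower length limit, and the longest measured 2023 bases. Their median length was 510 bases (order-statistic 95% interval 497 to 529), with quartiles of 441 and 639, against a median of 197 bases for the shorter introns. Lengths of 400 to 499 bases were found for 274 introns, 500 to 599 for 137, 600 to 799 for 88, 800 to 1000 for 48, and over 1000 for 38. These values follow from the rule and are given as a description. The alignment call had an intron limit of 1000 bases, and how many longer introns are missing from these numbers was not tested. At the limit itself, 40 introns of 400 to 409 bases had a median of 2 spliced reads (range 2 to 26), and 50 introns of 390 to 399 bases had a median of 3 (range 2 to 37). Just inside lay introns of exactly 400 bases on sequences 12 (from 6256991, 2 reads), 3 (from 2667342, 2 reads) and 5 (from 1648607, 7 reads). Just outside lay introns of 399 bases on sequences 1 (from 2568076, 2 reads), 2 (from 537250, 3 reads) and 8 (from 2887178, 3 reads).

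**Figure D1:**
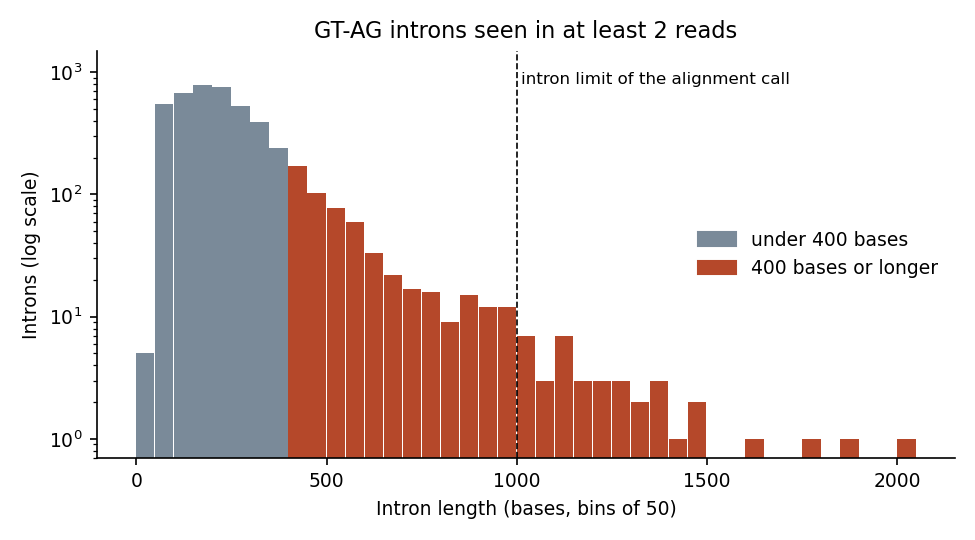
Number of GT-AG introns seen in at least 2 reads (log scale) by length in bins of 50 bases, with the 585 introns of 400 bases or longer in red and the 3941 shorter ones in grey. Counts are highest in the bin of 150 to 199 bases and mostly fall off beyond it. Past the dashed line at 1000 bases, the intron limit of the alignment call, lie 38 introns.

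Most long introns were supported by few reads each, and those over 1000 bases by more. The 585 introns were spliced out in 5561 events from 5195 reads, and 361 of these reads held at least 2 long introns. The median was 3 reads per intron for the long and for the shorter introns. Among the long ones it was 3 (interval 3 to 4) for the 547 of 400 to 1000 bases and 8.5 (interval 4 to 12) for the 38 over 1000 bases, whose loci held a median of 117.5 reads against 21. These read numbers are part of the rule and are a description. Exactly 2 reads supported 195 of the long introns (33.3%, interval 29.5 to 37.3), at least 10 supported 117 (95% interval 16.8% to 23.5%) and at least 50 supported 27. Among the shorter introns 18.6% had at least 10 reads. For 20 of the 585 long introns and 135 of the 3941 shorter ones, all reads had the same start, end and strand and may be copies of 1 PCR product. The longer of the aligned stretches on the weaker side had a median of 73 bases, and it was under 20 bases in 7 long introns and 73 shorter ones. A stretch is the aligned piece next to the gap, so pieces of the read beyond a further gap are not counted. For the intron on sequence 11 from 991438 it had 5 bases.

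The 10 long introns with the most spliced reads lay in 9 loci, a locus being a run of overlapping alignments. The intron on sequence 8 from 220992 to 222045, 1054 bases long on the plus strand, led with 266 spliced reads. A plus-strand locus on sequence 12 with 621 reads held 2 of the 10, an intron of 618 bases from 5229914 with 139 reads, the second highest number, and one of 662 bases from 5231148 with 96 reads. They are intron numbers 3 and 5 of the 5 in that locus. Elsewhere on sequence 12, an intron of 855 bases from 6331495 had 111 reads, and an intron of 411 bases from 5324263 had 89. In the latter, 37 of the 89 reads also had another place on the genome, so its count is less certain. On sequence NA, an intron of 597 bases from 1294832 had 102 reads. On sequence 10, an intron of 446 bases from 5106534 had 97. Sequence 2 held an intron of 952 bases from 3749178 and one of 537 bases from 4375989, each with 93 reads, and sequence 6 held one of 512 bases from 2920312 with 91.

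Long introns were present on every sequence and on both strands. The plus strand held 297 of them (50.8%, interval 46.6 to 54.9). As a share of the GT-AG introns of a sequence, they ranged from 8.91% on sequence 1 (41 of 460, interval 6.47 to 11.9) to 23.7% on sequence 14 (14 of 59, interval 13.6 to 36.6), with 23.0% on sequence 5 (20 of 87, interval 14.6 to 33.2). The intervals of sequences 5 and 14 lie above the upper bound for sequence 1, but these are the extremes of 18 sequences and were chosen after their values were seen.

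Within transcripts, long introns were found less often at the first position than shorter introns. Among the 591 loci with at least 3 introns on 1 strand, 60 of 363 long introns were the first observed (16.5%, interval 12.9 to 20.8), against 531 of 2365 shorter ones (22.5%, interval 20.8 to 24.2) and 21.7% of all introns in these loci. The difference was -5.92 percentage points (Newcombe 95% interval -9.80 to -1.45). In loci with at least 10 reads from the 5' end of the cDNA, recognised by 34 to 44 unaligned leading bases, the values were 12 of 113 long introns (10.6%, interval 5.61 to 17.8) and 142 of 641 shorter ones (22.2%, interval 19.0 to 25.6), with 20.4% over all and a difference of -11.5 points (interval -17.1 to -3.87). With loci of 2 introns included, the difference was -4.08 points (interval -8.10 to 0.291), which no longer excluded 0. Overlapping introns of a locus each took a number of their own, and their part in these differences was not tested.

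The share of long introns was lowest at the first position from the 5' end and higher at positions 2 and 3. In the 150 loci with at least 3 introns and a placed 5' end, 11 of 149 first introns were long (7.38%, interval 3.74 to 12.8), 18 of 149 at position 2 (12.1%, interval 7.32 to 18.4) and 30 of 149 at position 3 (20.1%, interval 14.02 to 27.5). Not every one of these loci gave an intron at each position, hence 149 and not 150. The median length of all introns at these positions was 130 bases (interval 112 to 152), 169 (interval 150 to 200) and 208 (interval 192 to 252). First introns were therefore shorter than those at position 3 beyond the intervals, and the intervals of neighbouring positions overlapped. From the fourth position on, the shares were 18.3%, 23.2% at the fifth and 12.6% at later ones, with overlapping intervals. Measured along the cDNA, the donor of 11 of 119 long introns lay within 150 bases of the commonest 5' end (9.24%, interval 4.71 to 15.9), against 131 of 702 shorter ones (18.7%, interval 15.8 to 21.7) and 17.3% of all. That difference was -9.42 points (Newcombe interval -14.5 to -2.33), with the limit of 150 bases chosen after the values were seen. Introns whose donor lay before that 5' end were left out of this comparison. Introns that were not aligned are missing from the numbering, and their part in these differences was not tested.

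**Figure D2:**
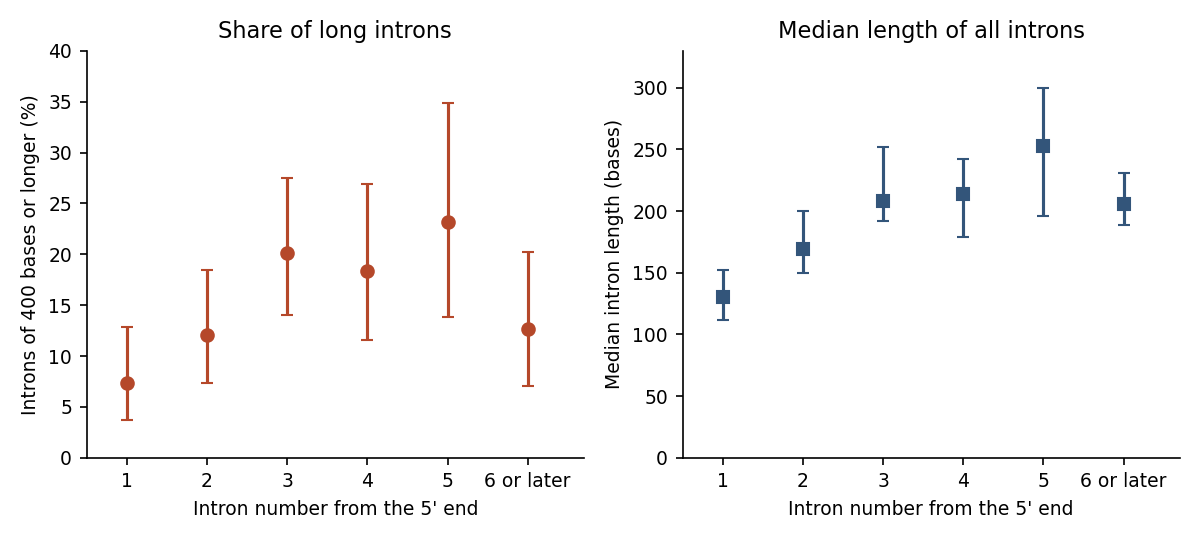
Left, percentage of introns of 400 bases or longer with exact 95% intervals, and right, median length of all introns in bases with order-statistic 95% intervals, both by intron number from the 5' end in 150 loci with at least 3 introns and a placed 5' end. The share of long introns is 7.38% at position 1 and 20.1% at position 3, and the median length is 130 and 208 bases.

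At the other end of the transcript the comparison depended on which introns were counted. The last observed intron made up 84 of 363 long introns (23.1%, interval 18.9 to 27.8) and 507 of 2365 shorter ones (21.4%, interval 19.8 to 23.1), where 21.7% of all were last, a difference of 1.70 points (Newcombe interval -2.68 to 6.58). In loci with at least 10 reads from the 3' end, recognised by 45 to 57 such bases on the opposite strand, the shares were 26.2% of 126 and 19.3% of 705, with 20.3% over all and a difference of 6.90 points (interval -0.647 to 15.6). Both intervals included 0. Among introns with at least 10 spliced reads the difference was 14.4 points (interval 4.67 to 25.1), and with the length limit at 300 bases it was 5.77 points (interval 2.23 to 9.48).

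The exons beside long introns had a median of 92.5 bases (interval 87 to 97, 540 exons seen whole in a read), against 85 bases beside shorter introns (interval 83 to 87, 2591 exons). The intervals met at 87 bases. Read length limits which exons can be seen whole, so longer exons can be missing from both values. An intron whose length is divisible by 3 can keep the reading frame when it is retained. Of the long introns 184 were of this kind (31.5%, interval 27.7 to 35.4), and 190 and 211 left remainders of 1 and 2. The share was 33.3% among shorter introns and 33.1% among all, and the difference of -1.84 points had a Newcombe interval of -5.76 to 2.30.

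Some loci held several long introns, and whether these were more than the number of introns per locus would give was not tested. The 585 introns lay in 455 of the 1900 loci with a GT-AG intron, 23.9% (interval 22.0 to 25.9). In 365 loci there was 1 long intron, in 66 there were 2, and in 24 there were 3 or more. Reads that spanned 2 adjacent introns joined a long intron to a long one in 64 pairs, to a shorter one in 370, and shorter introns to each other in 1503. The exon between adjacent long introns had a median of 93 bases and ranged from 29 to 201, again limited by the length of the reads. The shorter introns of loci with a long intron had a median length of 202 bases (interval 193 to 211, 1047 introns), against 195 bases (interval 191 to 199, 2894 introns) in loci without one, so they did not differ beyond their intervals.

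The locus with the most long introns was a minus-strand transcript on sequence 16 from 5967516 to 5976596, with 7 long among 14 introns. It had 36 reads, and its long introns measured 494, 574, 401, 427, 460, 483 and 586 bases in transcript order, each in 2 to 4 reads. The first 3 introns observed in it were all long. On sequence 2, the plus-strand locus from 3518977 to 3525689 had 82 reads and 6 long introns among 10, of 433, 519, 541, 710, 448 and 569 bases, each in 4 to 8 reads. Its other 4 introns measured 320, 393, 296 and 353 bases, so none of its 10 introns was under 296 bases. In both loci the introns followed each other without overlap.

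The locus on sequence NA from 1313290 to 1317547, with 107 reads and 6 long among 14 introns, had another layout. From 1314495 on, its donors followed each other at 383, 383, 383, 383, 382, 378 and 382 bases, and its 9 acceptors at 378 to 383 bases throughout. Between them, 8 introns of 150 to 155 bases, with 29 spliced reads, joined each of these donors to the next acceptor. The long introns began or ended at the same borders. They measured 601, 984, 920, 914, 532 and 915 bases and were seen in 3, 2, 2, 6, 2 and 6 reads. An intron of 532 bases thus reached 1 acceptor further than the neighbouring intron of 150 bases from the same donor at 1316409, and the intron of 915 bases reached 2 further. Of the 21 reads with these long introns, 6 also had another place (28.6%, interval 11.3 to 52.2), and the part of such reads in these introns was not tested.

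**Figure D3:**
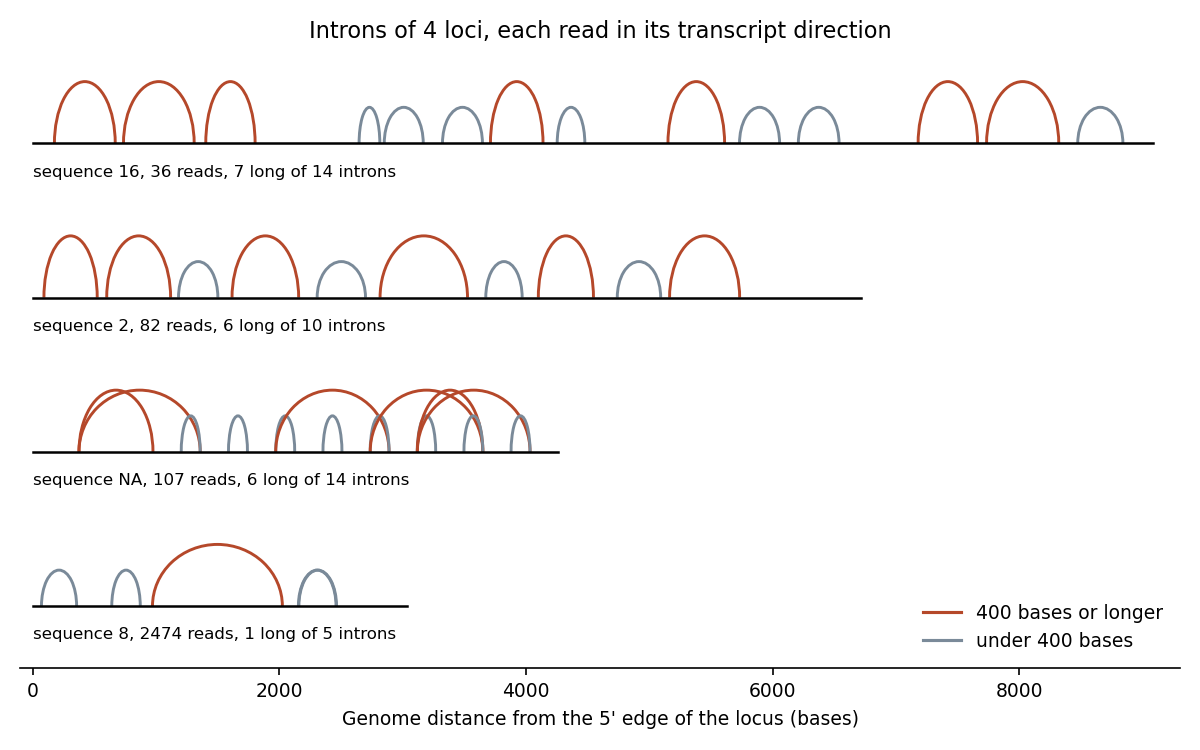
Introns of the 3 loci with the most long introns and of the locus of the most-read one on sequence 8, drawn as arcs from donor to acceptor, to scale by genome distance in bases from the 5' edge of the locus, with introns of 400 bases or longer in red and shorter ones in grey. In the locus on sequence NA, red arcs overlap grey ones at evenly spaced borders, while in the loci on sequences 16 and 2 the 7 and 6 long introns follow each other without overlap.

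Sharing of a donor or an acceptor with another intron was seen for 10 long introns (1.71%, interval 0.823 to 3.12), 35 shorter ones (0.888%) and 0.994% of all. The difference of 0.821 points had a Newcombe interval of -0.0298 to 2.25, and without the locus on sequence NA at 1313290, which held 6 of the 10, it was -0.0465 points (interval -0.576 to 1.05), an alternative chosen after seeing the data. The other 4 shared an acceptor and differed in the donor. On sequence 2, a minus-strand acceptor at 1170558 joined a donor at 1171262 over 705 bases in 6 reads and one at 1170764 over 207 bases in 4 reads. On sequence 17, the acceptor at 5630414 was joined over 487 bases in 4 reads and over 133 bases in 5. The 4 reads had a median identity of 93.55%, against a median of 99.1% over the long introns, so this pair is less certain. On sequence 7, the plus-strand acceptor at 5571440 was joined over 1328 bases in 3 reads and over 408 bases in 2, both of them long introns. With 2 to 6 reads on each side, the relative use of these donors was not estimated.

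Few long introns were crossed by unspliced reads, and the share of such reads depended on which introns were counted. A read counted as unspliced at a border when an aligned piece ran across it. This held on either strand and also if the read was spliced elsewhere. An unspliced read with at least 10 aligned bases on each side of a border was found at 25 long introns (4.27%, interval 2.78 to 6.24), against 199 shorter ones (5.05%, interval 4.39 to 5.78) and 4.95% of all. With 20 bases required, 8 long introns (1.37%, interval 0.592 to 2.68) and 77 shorter ones (1.95%) remained, 1.88% of all, and neither difference excluded 0 (Newcombe intervals -2.32 to 1.29 and -1.41 to 0.777). Of the 25 long introns, 20 were crossed by 1 such read, 18 at the acceptor alone and 5 at the donor alone. Unspliced reads made up 2.89% (interval 2.59 to 3.21) of all crossings of long introns. This share was 8.87% (interval 8.40 to 9.36) when 1 spliced read was enough and 0.832% (interval 0.644 to 1.06) with at least 10. The minimum acts on the spliced reads, which are part of all crossings, so a higher minimum lowers this share by itself. Without the intron on sequence 6 described next, unspliced reads made up 0.679% (interval 0.535 to 0.849), or 0.153% (interval 0.0890 to 0.244) with 20 bases required. The shorter introns, with none left out, had 0.853% and 0.434%, so the sides are not alike. Among them, introns of 201 to 399 bases had 211 crossings at the donor and 193 at the acceptor. With 20 bases required these were 18 and 124. Long introns on sequences 2 (from 5429298) and 12 (from 5551437) had 21 and 16 crossings at the acceptor, and 0 and 3 with 20 bases. With all introns over 1000 bases left out, the unspliced share of the long introns was 0.208% (interval 0.127 to 0.321) at 10 bases.

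The intron on sequence 6 from 2907324 to 2909115 was the only long intron, at a minimum of 5 crossings, where most counted as unspliced. Its 1792 bases on the plus strand were spliced out in 2 reads. Aligned pieces on either strand crossed its donor 122 times and its acceptor 133 times, and exons of a minus-strand transcript were not separated from these. Its body held 253 reads, of which 223 were spliced themselves. The gap spanned 6 introns of the minus strand, each with 72 to 122 spliced reads. The 2 reads that define the long intron thus give the other strand than the introns inside it, and their longer aligned stretch on the weaker side was 38 bases.

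Reads that lay wholly inside an intron were found in 17 long introns (2.91%, interval 1.70 to 4.61) and 13 shorter ones (0.330%), and in 0.663% of all. The difference was 2.58 points (Newcombe interval 1.47 to 4.28). A shorter intron has less room for a whole read, so this share depends on length. Per 1000 bases of intron, 0.903 reads lay inside long introns, 0.174 without the intron on sequence 6, and 0.0777 inside shorter ones. This rate depends on length as well, because an alignment must fit whole into the intron. The median read had 232 bases and the median shorter intron 197, so the rates do not compare the 2 groups at equal room. In the locus on sequence NA, 10 reads lay inside the intron of 920 bases, 9 inside that of 915 and 6 inside that of 914. Introns of this locus overlap, so a read can lie inside more than 1 of them. Without this locus, an alternative chosen after seeing the data, 2.07% of long introns (interval 1.08 to 3.59) held a read inside. The rate per 1000 bases was not computed without it. On sequence 13, 8 reads lay inside the intron from 1937635 and 6 inside that from 1937016, and none of these 14 had 50 aligned bases.

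The 38 introns over 1000 bases stood apart from all other length classes in how often alignments broke off at their borders. A stop was counted when an alignment ended within 10 bases of a border with at least 20 bases of the read left unaligned on that side. At introns over 1000 bases, 896 stops faced 1526 spliced crossings (each spliced read crosses both borders), so that stops made up 37.0% (interval 35.1 to 38.95) of the sum. At long introns of 400 to 1000 bases the share was 1.06% (interval 0.868 to 1.29) and at introns under 400 bases 1.18% (interval 1.11 to 1.25). The change fell at the length of 1000 bases, which the alignment call set as its intron limit. The 24 introns of 901 to 1000 bases had 14 stops (1.84%, interval 1.01 to 3.06), and the 10 introns of 1001 to 1100 bases had 455 (33.3%, interval 30.8 to 35.9).

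**Figure D4:**
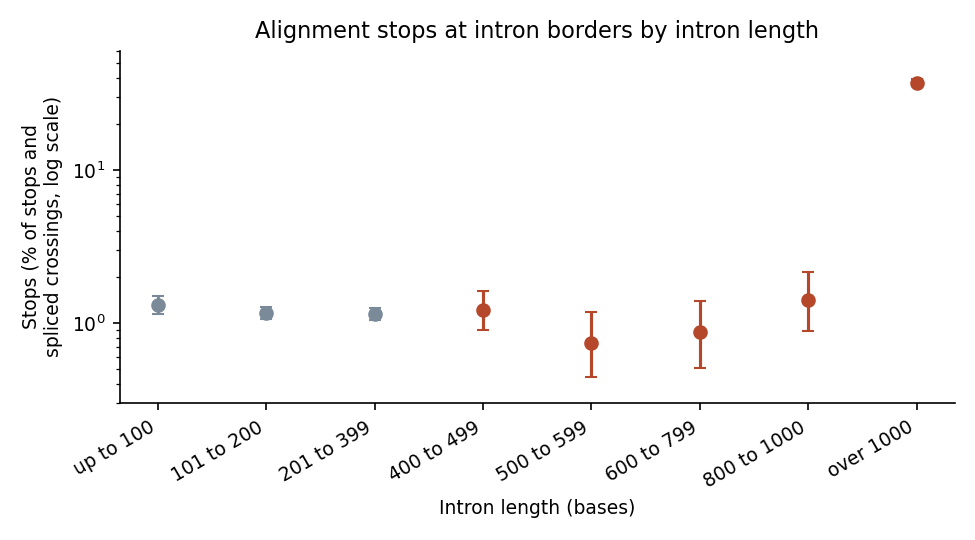
Alignment stops at intron borders as a percentage of stops and spliced crossings (log scale), by intron length in bases, with exact 95% intervals and classes of 400 bases or longer in red. The classes up to 1000 bases lie between 0.746% and 1.42%, and the class over 1000 bases lies at 37.0%.

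The balance of stops and spliced reads differed between the introns over 1000 bases, and whether the intron limit produced the stops was not tested. The intron on sequence 8 from 220992 had 266 spliced reads, 144 stops at the donor and 138 at the acceptor. Without it, the share of stops was 38.2% (interval 35.8 to 40.6) over 37 introns. Stops at both borders together outnumbered spliced reads at 19 of the 38, against 0 of the 547 introns of 400 to 1000 bases, 5 of the 3941 shorter ones and 0.53% of all. The intron of 1163 bases on sequence 12 from 1870061 had 11 spliced reads, 16 stops at the donor and 38 at the acceptor. By contrast, the intron of 1008 bases on sequence 1 from 3945051 had 54 spliced reads and 12 stops. This pair was chosen after the values were seen.

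The 5 longest introns showed the same range. The longest, 2023 bases on sequence 13 from 542876, was seen in 2 reads with the same alignment and had no stop. On sequence 2, an intron of 1876 bases from 4464439 had 4 spliced reads, 2 stops at the donor and 10 at the acceptor. The intron of 1792 bases on sequence 6, described above, had no stop. On sequence 16, an intron of 1602 bases from 1709392 had 30 spliced reads, 13 stops at the donor and 41 at the acceptor. On sequence 10, an intron of 1492 bases from 5104942 had 34 spliced reads, 5 stops at the donor and 32 at the acceptor. An exon of 100 bases separates it from the intron of 446 bases from 5106534, which had 97 spliced reads and no stop in the same transcript.

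**Figure D5:**
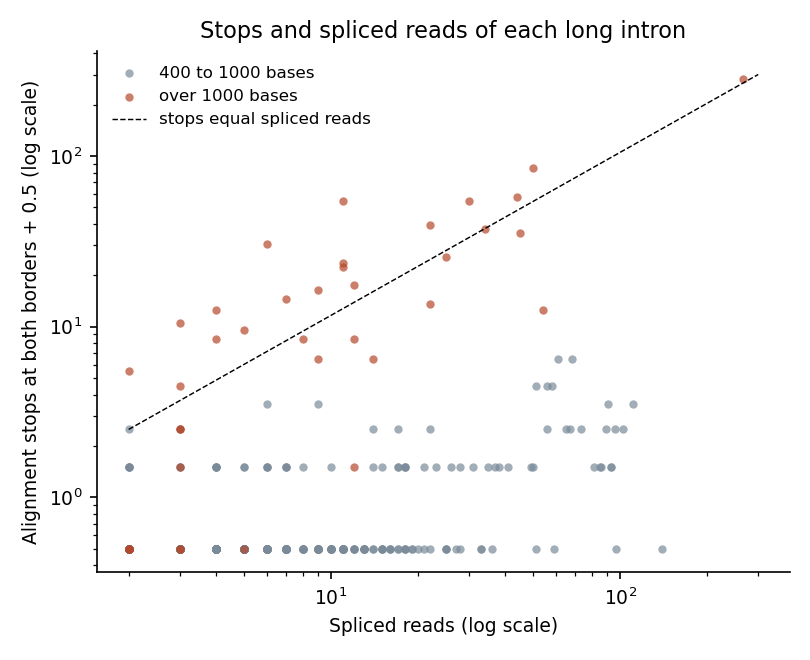
Alignment stops at both borders plus 0.5 against spliced reads, both on log scales, for each of the 585 long introns, with the 38 over 1000 bases in red, the 547 of 400 to 1000 bases in grey, and a dashed line where stops equal spliced reads, drawn with the same 0.5 added. Above the line lie 19 introns over 1000 bases and none of 400 to 1000 bases, and introns with equal numbers lie on it.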

How the data were processed

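The deposited file holds 1 record per alignment of 1 read with its exons, in no other expression unit than alignment records. The authors aligned the reads of the N-replete library with GMAP, with option K, the intron length limit, and option L set to 1000 bases, per the file headers; the submitters' processing notes also name GSNAP. Of several places, the one kept for each read was that where identity multiplied by the aligned part of the read was highest, and 16190 reads with a separate place within 0.1 percentage points were left out. Gaps with GT-AG signs were merged by sequence, start, end and transcript strand. The gene table at hand, of assembly v5.5, reaches beyond the end of the like-numbered sequence in 11 of 16 cases, so no gene was assigned. Reads with 34 to 44 leading unaligned bases marked 5' ends and 45 to 57 marked 3' ends. Members, lists and measures were chosen with earlier results of these data known. Introns were named by these rules, with ties by sequence name and start: the 10 with the most spliced reads, the 5 longest, the 3 loci with the most members, the 3 on each side of the length limit, those read through in most of at least 5 crossings, the 5 with the most reads inside, and up to 10 that share a border. Intervals of differences are Newcombe intervals over introns; with 1 library no p-value was computed. On simulated records, the code recovered 200 of 200 introns with borders, strand and reads, and 193 of 193 tied reads. Intervals used scipy 1.17.1, run under Python 3.11.15 with numpy 2.4.6; figures were drawn in matplotlib 3.10.9.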

Additional observations from a re-analysis of the deposited data

Results flagged for a closer look

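Of the reads left out for a tie, 36 of 16190 held a GT-AG gap of at least 400 bases. Among 81 introns with GC-AG borders seen in at least 2 reads, 7 were at least 400 bases long, where 585 of the 4526 GT-AG introns were. Both counts come from alignments outside the comparisons above.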

How the results depend on the processing

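No paired analysis was possible because 1 library of 1 condition was analysed. The difference at the first position kept its sign and an interval without 0 under 11 of 12 alternatives, and was -4.08 points (interval -8.10 to 0.291) with loci of 2 introns included. With at least 10 reads per intron there were 117 long introns, with a median length of 554 bases, a difference at the last position of 14.4 points, 0.832% of crossings unspliced, neighbouring shorter introns of 167 bases and flanking exons of 102 bases. With 1 read per intron there were 1167, with 8.87% unspliced, a difference in shared borders of 2.02 points and neighbouring introns of 215 bases. From 500 bases on there were 311, with a median of 621 bases, 4.23% unspliced, 1.69 points for shared borders and neighbouring introns of 224 bases. From 300 bases on there were 1216, with a median of 395 bases, 5.77 points at the last position, 1.96% unspliced and neighbouring introns of 182 bases. The differences at the last position and in shared borders given so far had intervals without 0. With copies counted once, the difference in shared borders was 0.955 points, also without 0 in its interval, and stops made up 30.8% at introns over 1000 bases. That share was 35.0% within 5 bases of a border and 31.8% with 40 unaligned bases required, and all 3 alternatives for this share were chosen after seeing the data. Without the locus on sequence NA at 1313290, the difference in shared borders was -0.0465 points (interval -0.576 to 1.05). This alternative, too, was chosen after seeing the data. The unspliced share was 2.17% with 20 bases on each side, 0.208% without introns over 1000 bases, and 0.679% without the intron on sequence 6 at 2907324, an alternative chosen after seeing the data. With the limit at 500 or 300 bases, the number and median length of the long introns follow from the limit itself. It also sets which introns count as neighbouring shorter ones. A minimum number of spliced reads acts on the unspliced share as well, because spliced reads enter it. The causes of the other changes were not tested. Depth limits the account to transcripts with at least 2 reads across an intron, and another 582 gaps of at least 400 bases were seen in 1 read.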
